A study of Mus musculus with 12 samples.

Results

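The genes described here are 38 genes of glycolysis and of the transcriptional response to low oxygen, measured in cultures labelled as mouse mast cells. They were chosen by name and role, with earlier results of these data known, so their shares beside those of all genes carry no test. Each was read from a probe set that the platform annotation pairs with its symbol alone. Where a gene had several such probe sets, the one with the highest mean was read. Of the 38 genes, 35 were measured, among 19938 genes on the arrays. Gpi1, which codes for phosphoglucose isomerase, and Eno1, which codes for an enolase, had no probe set named for them alone. Gapdh, the glyceraldehyde 3-phosphate dehydrogenase gene, was found only on 25 probe sets shared with other symbols and was not used. Ero1l was found under its present symbol, Ero1a.

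The series compared bone marrow derived mast cells of wild type C57BL/6 mice and of ACKR2-/- mice, labelled as the same strain, after 2 and 10 weeks of culture, on 12 single-colour arrays with 3 arrays in each of the 4 groups. ACKR2 (also named D6) is a chemokine receptor that takes up inflammatory chemokines without classical signalling. All 4 groups are described as coming from female mice aged 4 to 6 weeks, which the values of 4 arrays go against, as given below. The culture medium of all groups held SCF (12.5 ng/ml) and IL-3 (10 ng/ml), the growth factors of mast cells. Some 2-week cultures were passed over a magnetic column with an antibody to CD117 (the product of Kit) to purify mast cells, per the protocols, which do not name the arrays concerned and describe the cells as homogenous after 4 weeks. Each array is labelled as a biological replicate, without saying which mouse or culture it came from, and p-values measure the spread between such arrays. Group values are log2 signals, given in the order of the array numbers.

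Glycolysis turns glucose into pyruvate in the cytosol. Lactate dehydrogenase and the monocarboxylate transporters then remove pyruvate as lactate, while pyruvate dehydrogenase, inside mitochondria, commits it to the citrate cycle unless its kinases switch it off. The hypoxia-inducible factors (HIF) are transcription factors whose alpha subunits are hydroxylated by prolyl hydroxylases when oxygen is present, bound by the VHL protein and degraded. When oxygen is low the alpha subunits persist, pair with ARNT and raise the transcription of many glycolysis genes and of genes such as Bnip3, Ero1l and Car9. In mast cells, which work in tissues of varied oxygen supply, activation draws on glycolysis.

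Before the results, 4 arrays go against their labels: wild type array 3 and all 3 ACKR2-deficient arrays at 2 weeks, called here the 4 arrays that stand apart. Fcer1a, a subunit of the mast cell IgE receptor, read 4.83 to 5.47 on them and 13.74 to 14.14 on the other 8, and Kit read 7.51 to 9.18 on them and at least 13.61 on the others. The mean of 16 of 17 mast cell markers was 6.84 to 7.11 on them and 11.91 to 12.43 on the others, while the means for B cells (9.71 to 12.60, against 6.62 to 7.17), T and NK cells (8.68 to 11.51, against 6.67 to 7.30) and dendritic cells (8.46 to 9.70, against 6.74 to 7.20) were higher. Xist, expressed from the inactive X chromosome of female cells, read 5.77 to 6.23 on them and at least 13.00 on the others, and the Y-linked Kdm5d read 10.06 to 10.51 on them and at most 6.42 on the others. The 4 arrays were not alike. ACKR2-deficient array 3 had means of 12.60 for B cells and 8.68 for T and NK cells, while the rest of the 4 had 9.71 to 9.95 and 11.44 to 11.51. Over all genes its closest array had a correlation of 0.966 with it, against 0.997 to 0.998 for the rest of the 4. Ackr2 itself was not called lower in ACKR2-deficient arrays (0.25 ± 0.32 at 2 weeks, limma adjusted p = 0.764; 0.08 ± 0.32 at 10 weeks, 0.999), and what its probe set covers is not known here, so it does not check the genotype labels. The counts of called genes that rest on these arrays are given with and without them where the groups allow.

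Because HIF binds a short core sequence, ACGTG or GCGTG, in the promoters of many of its targets, the 250 bases before the gene start were searched for this core on both strands (CACGT and CACGC are its reverse complements; overlapping matches were joined). RefSeq sequences of GRCm38.p6 were used here for 34 of the 38 genes, and not for Slc2a3, Epas1, Bnip3l and Ndrg1. The core stood in at least 1 window of 31 of these 34 genes (91.2%), against 41.5% of 27025 genes with a window and 47.1% of 17492 protein-coding genes. Of the single windows, 39 of 47 held it, against 38.6% of 32851. The windows were not matched on base composition, and a match describes letters, not a bound site. The genes were chosen for roles that include the response to HIF, so a high share may come from the choice and carries no test. The windows of 6 of the genes with large changes below are shown, chosen after their values were seen, so that the core can be read beside the expression values. The choice is not a ranking: Slc16a1, which fell by more (-1.57) than Slc16a3 rose (1.54), is left out. Each sequence runs 5′ to 3′ in the direction of its gene up to the last base before the gene start, with the core in capitals.
P4ha1, chr10:59323046-59323295, plus strand: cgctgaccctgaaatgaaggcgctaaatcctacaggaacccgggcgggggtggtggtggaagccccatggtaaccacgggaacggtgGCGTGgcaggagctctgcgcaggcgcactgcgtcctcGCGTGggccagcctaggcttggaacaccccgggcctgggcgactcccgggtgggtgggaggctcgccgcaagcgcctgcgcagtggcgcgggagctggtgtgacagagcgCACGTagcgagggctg
Ero1l, chr14:45318573-45318822, minus strand: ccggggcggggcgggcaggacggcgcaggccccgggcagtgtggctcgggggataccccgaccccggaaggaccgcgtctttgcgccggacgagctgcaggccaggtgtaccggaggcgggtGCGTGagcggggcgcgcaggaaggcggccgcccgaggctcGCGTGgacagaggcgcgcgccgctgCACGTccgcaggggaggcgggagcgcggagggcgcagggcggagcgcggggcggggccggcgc
Bnip3, chr7:138909507-138909756, minus strand: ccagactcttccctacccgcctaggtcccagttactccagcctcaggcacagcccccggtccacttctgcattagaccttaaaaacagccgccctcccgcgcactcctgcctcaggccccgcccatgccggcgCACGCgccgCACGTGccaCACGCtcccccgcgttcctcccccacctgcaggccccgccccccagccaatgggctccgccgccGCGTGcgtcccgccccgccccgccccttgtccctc
Aldoc, chr11:78322823-78323072, plus strand, 1 of 2 windows: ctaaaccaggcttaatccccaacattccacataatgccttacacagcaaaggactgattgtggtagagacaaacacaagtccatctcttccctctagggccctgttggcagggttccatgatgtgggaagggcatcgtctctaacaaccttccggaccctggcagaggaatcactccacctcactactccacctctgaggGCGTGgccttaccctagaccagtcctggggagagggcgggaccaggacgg
Slc16a3, chr11:120948817-120949066, plus strand: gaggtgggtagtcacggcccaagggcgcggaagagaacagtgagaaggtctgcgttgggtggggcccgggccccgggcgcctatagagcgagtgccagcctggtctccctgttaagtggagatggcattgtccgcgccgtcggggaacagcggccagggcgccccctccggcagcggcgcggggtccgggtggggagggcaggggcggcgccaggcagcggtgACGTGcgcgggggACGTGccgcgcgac
Pdk1, chr2:71872974-71873223, plus strand, 1 of 2 windows: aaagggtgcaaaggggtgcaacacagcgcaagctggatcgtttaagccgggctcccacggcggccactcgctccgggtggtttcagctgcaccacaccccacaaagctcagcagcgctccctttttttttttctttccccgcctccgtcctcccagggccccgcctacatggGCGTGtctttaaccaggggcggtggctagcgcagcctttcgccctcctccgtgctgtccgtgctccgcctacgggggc
In P4ha1 the core began 163, 126 and 16 bases before the gene start. In Ero1l it began 128, 88 and 63 bases before it. Bnip3 held 4 stretches, at 117, 108, 99 and 35 bases, of which the one at 108 bases is the palindrome CACGTG, a match on both strands. Slc16a3 held its stretches 27 and 14 bases before the start, and the windows shown of Aldoc and Pdk1 held 1 each, at 50 and 78 bases. The other window of Aldoc held 1 at 39 bases, and the other window of Pdk1 held 0. Slc16a1, which is not shown, held 3 stretches, at 200, 149 and 134 bases. The core was thus present in at least 1 window of genes whose signals moved in opposite directions. Pdk1 and Slc16a1 fell and the others named here rose between 2 and 10 weeks in ACKR2-deficient arrays, as described below.

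The 35 genes took their main pattern from the 4 arrays that stand apart. Their mean log2 signal was 10.48, 10.50 and 9.78 on wild type arrays at 2 weeks and 9.75, 9.73 and 9.48 on ACKR2-deficient arrays at 2 weeks. At 10 weeks it was 10.50, 10.46 and 10.37 on wild type arrays and 10.46, 10.22 and 10.25 on ACKR2-deficient arrays. Wild type array 3 at 2 weeks thus lay with the ACKR2-deficient arrays of that time, and the other 8 arrays lay above them. On 19 of the 35 genes (54.3%) the 8 arrays all read above the 4, against 15.0% of all 19938 genes. On 2 (Pdk1 and Hk1) they all read below, against 11.8% of all genes, but Hk1 is uncertain: its other probe set read the reverse, 9.08 to 9.83 on the 4 arrays and 10.58 to 10.81 on the 8. These counts describe arrays and carry no test. In RNA taken from many cells at once, fewer cells of a type and less RNA per cell cannot be told apart. On the 4 arrays the sex-linked transcripts and the cell type marker means differed as well, as given above.

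**Figure D1:**
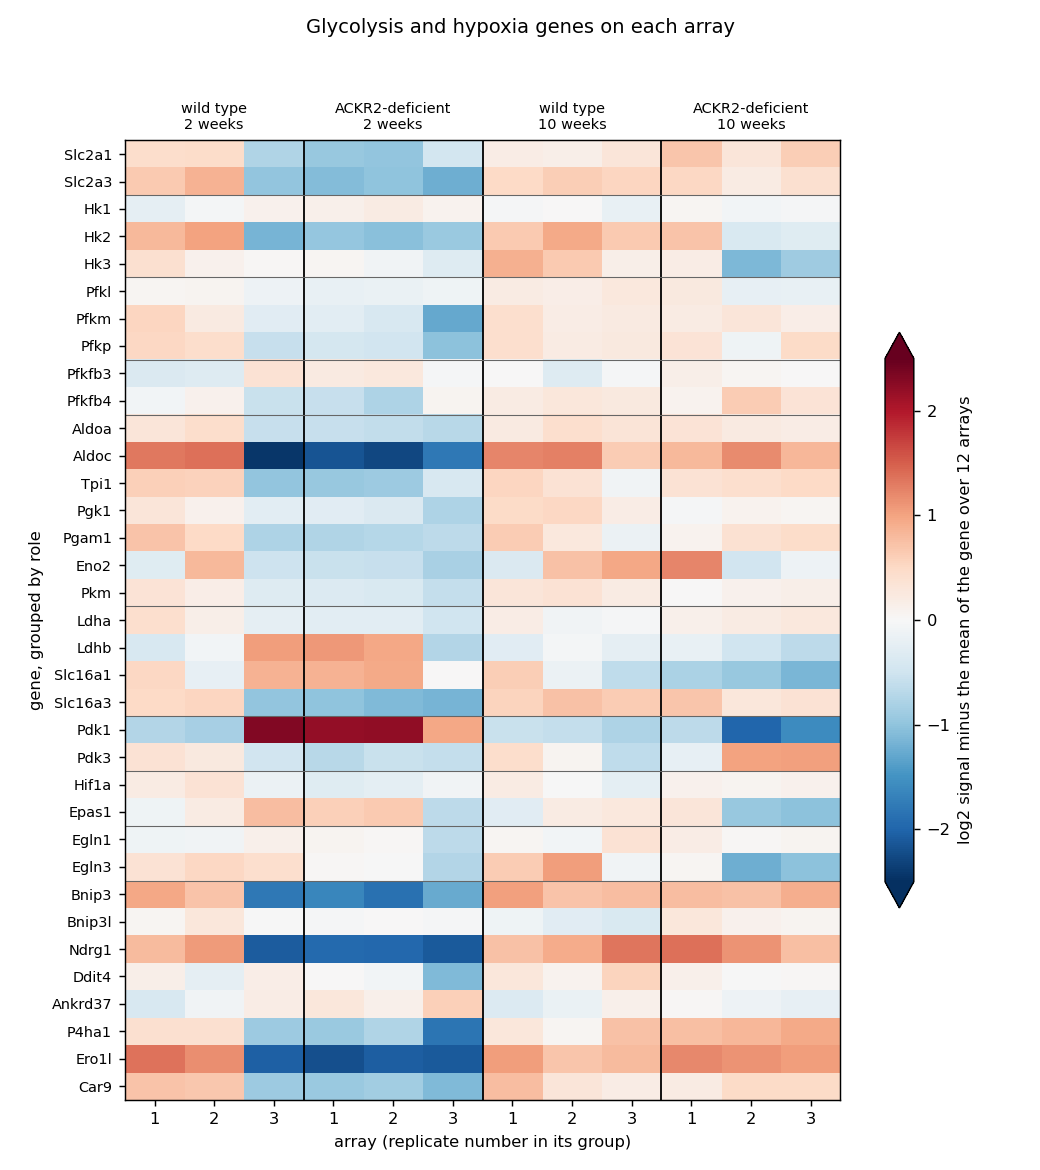
Each row is 1 of 35 genes, grouped by role, and each column 1 of 12 arrays; colour is the log2 signal minus the mean of that gene over the 12 arrays. Wild type array 3 and the 3 ACKR2-deficient arrays at 2 weeks are blue for Aldoc, Bnip3, Ndrg1 and Ero1l and red for Pdk1, whereas the other 8 arrays, whose means over the 35 genes lie between 10.22 and 10.50, show the reverse.

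The first comparison asked how the genes differ between 2 and 10 weeks of culture in ACKR2-deficient cells. A gene was counted as changed at a Benjamini-Hochberg adjusted p under 0.05 over all 19938 genes in limma. The standard errors and p-values of this fit pool the spread of all 4 groups. Wild type array 3 at 2 weeks therefore enters them, although its group is not compared here. Of the 35 genes, 17 changed: 15 rose and 2 fell, against 16.8% of all genes called (10.5% higher and 6.33% lower). The median log2 difference of the 35 was 0.79, beside 0.06 over all genes. The groups did not overlap for 27 of the 35 genes, 23 of them higher and 4 lower at 10 weeks, against 44.5% of all genes (26.7% and 17.7%). All 3 ACKR2-deficient arrays at 2 weeks are among the 4 that stand apart, so there is no version of this comparison without them, and culture time and cell identity cannot be told apart. The mean of 16 mast cell markers was 6.84 to 7.11 on those 3 arrays and 11.91 to 12.37 at 10 weeks, and the mean of 11 monocyte and macrophage markers was 10.54 to 10.83 at 2 weeks and 7.68 to 9.90 at 10 weeks. The calls, more than the differences, rested on single arrays. Over the 12 fits that each left out 1 array, the difference ran from 3.20 to 3.28 for Ero1l, from 2.94 to 3.25 for Ndrg1 and from 2.90 to 3.16 for Aldoc. Yet without ACKR2-deficient array 2 or array 3 at 10 weeks no gene on the arrays was called. The medians of the 35 genes were then 0.65 and 0.76. Without ACKR2-deficient array 1, 2 or 3 at 2 weeks, 5, 4 and 10 of the 35 were called, against 7.59%, 6.98% and 13.3% of all genes. Leaving out ACKR2-deficient array 1 at 10 weeks gave 11 called, against 13.0% of all genes.

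Of the 8 hypoxia targets outside glycolysis, 5 rose, and these held the largest increase of the 35. Ero1l codes for the oxidase that drives disulfide formation in the endoplasmic reticulum. It read 9.40, 9.54 and 9.49 at 2 weeks and 12.80, 12.71 and 12.64 at 10 weeks on ACKR2-deficient arrays. The groups were far apart and each was tight, and the log2 difference of 3.24 ± 0.69 (SE from limma, n = 3 arrays per group) was 9.44-fold (limma adjusted p = 0.0149). This SE is pooled and is not the spread of the 2 groups compared. Their SDs were 0.07 and 0.08, while that of wild type arrays at 2 weeks was 1.91. Ndrg1, a stress-responsive gene long used as a hypoxia marker, read 9.32, 9.29 and 9.15 and then 12.63, 12.38 and 12.01. It was likewise higher on every 10-week array, by 3.09 ± 0.65 (limma adjusted p = 0.0144). Bnip3, a mitochondrial receptor for mitophagy, read 8.19, 7.96 and 8.56 at 2 weeks and 10.60, 10.56 and 10.74 at 10 weeks, a rise of 2.39 ± 0.57 (limma adjusted p = 0.0195). Its other probe set rose from between 7.83 and 8.18 to between 9.44 and 9.46, so both moved the same way. P4ha1, the catalytic alpha subunit of collagen prolyl 4-hydroxylase, read 10.24, 10.42 and 9.35 and then 11.91, 12.001 and 12.13, a rise of 2.01 ± 0.37 (limma adjusted p = 0.0137). Array 3 was the lowest of its group at 2 weeks and the highest at 10 weeks. Car9, the cell surface carbonic anhydrase induced by HIF, read 7.25, 7.30 and 7.06 and then 8.36, 8.65 and 8.64, a rise of 1.35 ± 0.36 (limma adjusted p = 0.0305). Ero1l, Ndrg1 and P4ha1 were called in 10 of the 12 fits that each left out 1 array, Bnip3 in 8 and Car9 in 6.

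The other 3 hypoxia targets did not pass the test. Bnip3l, the close relative of Bnip3, differed by 0.17 ± 0.11 and Ddit4, an inhibitor of mTORC1 signalling, by 0.44 ± 0.26. Ankrd37, an ankyrin repeat gene with a HIF-responsive promoter, differed by -0.43 ± 0.18 and was the only one of the 8 with a lower mean at 10 weeks.

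**Figure D2:**
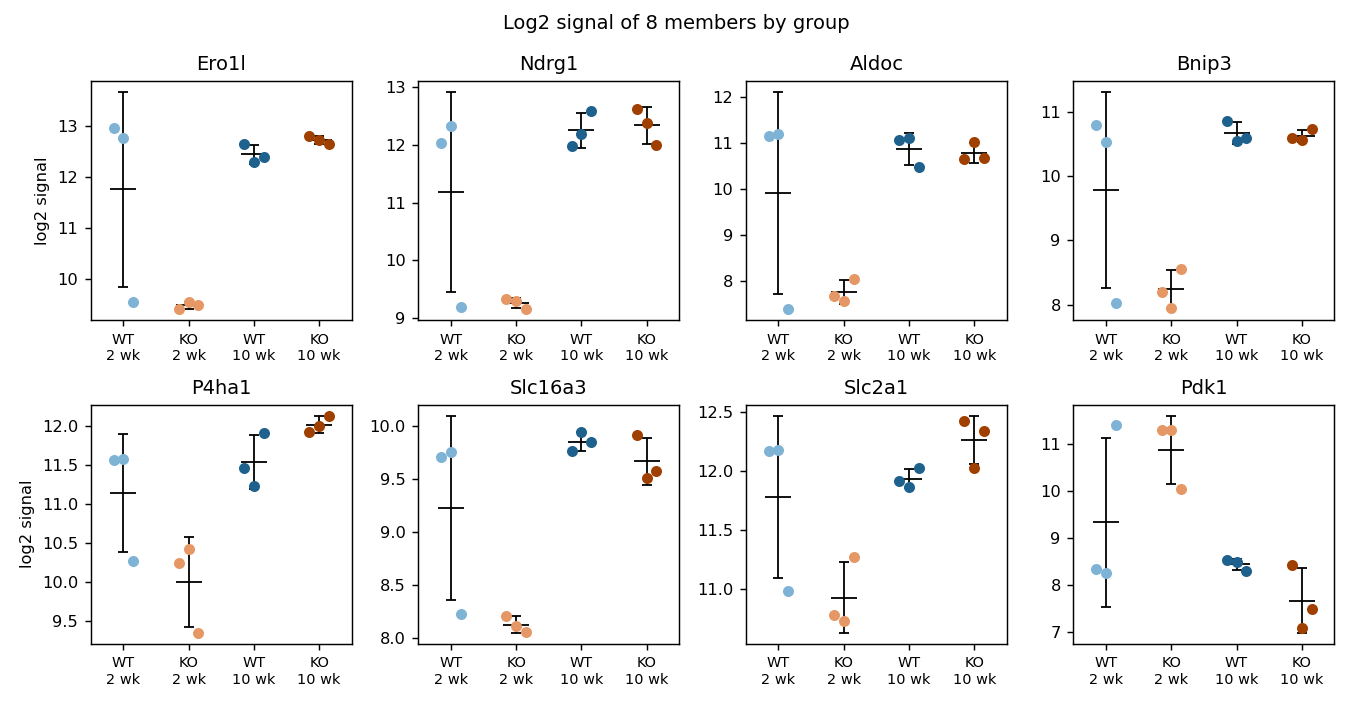
Log2 signal (vertical axis) of 8 genes in the 4 groups (WT, wild type; KO, ACKR2-deficient; wk, weeks of culture); points are arrays 1 to 3 from left to right, and the bar and whiskers are the mean and SD of 3 arrays. Ero1l lies between 9.40 and 9.55 on wild type array 3 and the 3 ACKR2-deficient arrays at 2 weeks and between 12.28 and 12.95 on the other 8, and Pdk1 shows the reverse order.

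Both glucose transporters rose. Slc2a1, the widely expressed transporter GLUT1, read 10.78, 10.73 and 11.27 at 2 weeks and 12.42, 12.03 and 12.34 at 10 weeks, a rise of 1.34 ± 0.29 (limma adjusted p = 0.0153). Slc2a3, the high-affinity transporter GLUT3, read 10.32, 10.39 and 10.17 and then 11.91, 11.61 and 11.79, a rise of 1.47 ± 0.38 (limma adjusted p = 0.0261). For neither gene did the groups overlap.

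Of the hexokinases, which phosphorylate glucose as it enters the cell, Hk2 and Hk3 did not pass the test and the call for Hk1 depended on its probe set. Hk2 read 7.99, 7.91 and 8.02 at 2 weeks and 9.67, 8.56 and 8.65 at 10 weeks. Every 10-week array was higher, array 1 by the most, and the difference was 0.99 ± 0.49 (limma adjusted p = 0.212). Hk2 was called only in the version without wild type array 3 at 2 weeks, among the 12 fits that each left out 1 array. Hk3, the hexokinase of myeloid cells, differed by -0.49 ± 0.31. Hk1 is uncertain: the probe set with the highest mean differed by -0.15 ± 0.11, while its other probe set was higher at 10 weeks by 1.14 and passed (limma adjusted p = 0.0167). A further 16 probe sets are annotated to both Hk1 and the ribosomal protein gene Rpl17, and over the 12 arrays their mean had a correlation of 0.87 with the probe set used and -0.70 with the other. Of the phosphofructokinases, which commit sugar to glycolysis, Pfkm, the muscle form, rose by 0.87 ± 0.26 (limma adjusted p = 0.0461). Pfkp, the platelet form, was 0.88 ± 0.28 higher with an adjusted p just above the threshold (0.0582, limma), and Pfkl, the liver form, differed by 0.10 ± 0.13. Pfkp was called without wild type array 3 at 2 weeks and also in the fit of only the groups compared. Of the bifunctional enzymes that set fructose 2,6-bisphosphate, an activator of phosphofructokinase, Pfkfb4 rose by 0.79 ± 0.24 (limma adjusted p = 0.0465) and Pfkfb3 differed by -0.08 ± 0.19.

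Of the 7 measured genes from aldolase to pyruvate kinase, 3 rose, and all 7 had a higher mean at 10 weeks. Aldoc, the brain form of aldolase and a known HIF target, read 7.67, 7.57 and 8.05 at 2 weeks and 10.65, 11.02 and 10.66 at 10 weeks. The groups were far apart, and the rise was 3.02 ± 0.81, 8.09-fold (limma adjusted p = 0.0296). Aldoa, the main aldolase of most tissues, read 12.55, 12.52 and 12.43 and then 13.47, 13.35 and 13.31, a smaller rise of 0.88 ± 0.22 (limma adjusted p = 0.0224). Pkm, the pyruvate kinase of most tissues, rose by 0.53 ± 0.16 (limma adjusted p = 0.0430). Triose phosphate isomerase (Tpi1) was 1.18 ± 0.37 higher, phosphoglycerate mutase (Pgam1) 1.02 ± 0.34 and phosphoglycerate kinase (Pgk1) 0.50 ± 0.17, with limma adjusted p of 0.0523, 0.0636 and 0.0751, just outside the threshold. Each of these was called without wild type array 3 at 2 weeks and also in the fit of only the groups compared. Eno2, the neuronal enolase, was 0.85 ± 0.49 higher with wide scatter at 10 weeks (9.28, 7.58 and 7.92). Several of these enzymes have processed pseudogenes or close relatives that can share probes, so their values are uncertain in that respect.

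At the lactate end the members moved both ways. Ldha, the lactate dehydrogenase subunit induced by HIF, rose by 0.54 ± 0.16 (limma adjusted p = 0.0393). Ldhb, the subunit that prevails in oxidative tissues, read 8.98, 8.87 and 7.16 at 2 weeks and 7.71, 7.41 and 7.25 at 10 weeks. Its array 3 at 2 weeks was as low as the 10-week arrays, and the difference of -0.88 ± 0.47 did not pass the test. Slc16a3, the lactate exporter MCT4, read 8.21, 8.11 and 8.06 and then 9.92, 9.51 and 9.58, a rise of 1.54 ± 0.33 (limma adjusted p = 0.0152), called in 10 of the 12 fits without 1 array. Slc16a1, the monocarboxylate transporter MCT1, read 9.86, 9.94 and 8.997 and then 8.19, 8.04 and 7.85. It was lower on every 10-week array and fell by 1.57 on the log2 scale (SE 0.36, limma adjusted p = 0.0184).

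The pyruvate dehydrogenase kinases, which switch off entry of pyruvate into the citrate cycle, also moved apart. Pdk1 read 11.28, 11.29 and 10.04 at 2 weeks and 8.42, 7.09 and 7.50 at 10 weeks. It was the member with the largest decrease, and fell by 3.20 on the log2 scale (SE 0.74, limma adjusted p = 0.0180), a 9.20-fold difference. Pdk3 read 9.62, 9.75 and 9.70 and then 10.10, 11.31 and 11.33, with array 1 at 10 weeks nearest to the 2-week arrays. It rose by 1.22 ± 0.37 (limma adjusted p = 0.0444) and was called in 5 of the 12 fits without 1 array.

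None of the 4 measured genes for HIF alpha subunits and prolyl hydroxylases among the 35 passed the test; Vhl, which belongs to another list, did and is given below. Hif1a, the broadly expressed HIF alpha subunit, read 10.98, 11.03 and 11.18 at 2 weeks and 11.38, 11.34 and 11.37 at 10 weeks, a difference of 0.30 ± 0.15 (limma adjusted p = 0.207). Hif1a was called in the fit of only the groups compared, and in 0 of the 12 fits that each left out 1 array. Epas1, which codes for the HIF-2 alpha subunit, differed by -0.76 ± 0.43. Among the prolyl hydroxylases, Egln1 (PHD2), the main oxygen sensor of most cells, differed by 0.27 ± 0.19 and Egln3 (PHD3), itself a HIF target, by -0.49 ± 0.36. HIF activity is set mainly at the protein level, which these arrays do not measure.

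In wild type cells the same question gave no called gene: 0 of the 35 passed, against 0% of all 19938 genes, and at an unadjusted limma p under 0.05 there was 1 of 35, against 6.65% of all genes (1326). The median difference of the 35 was 0.21, beside 0.03 over all genes. The groups did not overlap for 4 genes, against 8.74% of all (5.29% higher and 3.45% lower): Slc16a3 (0.63 ± 0.33), Pfkfb4 (0.41 ± 0.24) and Pfkl (0.22 ± 0.13) were higher at 10 weeks and Bnip3l (-0.37 ± 0.11) lower. The spread at 2 weeks came from array 3. Ero1l read 12.95, 12.76 and 9.55 at 2 weeks and 12.64, 12.28 and 12.38 at 10 weeks, so that its difference of 0.68 ± 0.69 had a 95% interval from -0.85 to 2.22. Ndrg1 read 12.04, 12.33 and 9.18 and then 11.99, 12.19 and 12.59, and Bnip3 read 10.79, 10.54 and 8.03 and then 10.86, 10.54 and 10.59. For these 3 genes array 3 at 2 weeks alone was low, and arrays 1 and 2 read within or near the 10-week range.

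Without wild type array 3 at 2 weeks, the median of the 35 genes was 0.00 and that of all genes -0.00, 18 of the 35 differences changed sign and 0 of the 35 were called (0% of all genes). Ero1l was then -0.42 ± 0.13, with a limma adjusted p of 0.542, Ndrg1 0.07 ± 0.21 and Aldoc -0.31 ± 0.21. Pdk1, at -0.89 ± 0.74 with all arrays, was 0.14 ± 0.42 without it. Bnip3l was -0.43 ± 0.12.

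**Figure D3:**
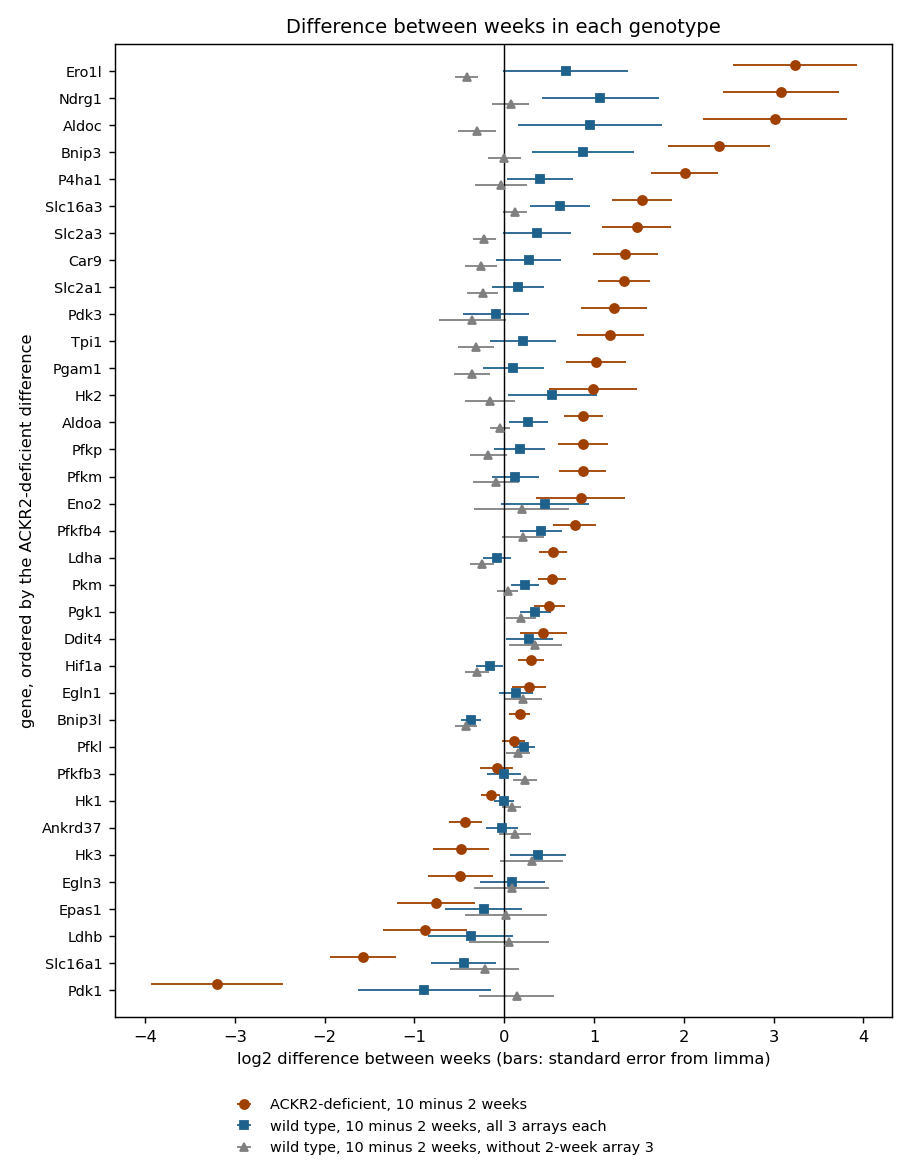
Log2 difference between 10 and 2 weeks (horizontal axis, with limma's SE) of each of 35 genes in ACKR2-deficient arrays (circles), in wild type arrays (squares) and in wild type arrays without array 3 at 2 weeks (triangles). The circles run from -3.20 for Pdk1 to 3.24 for Ero1l, whereas the triangles have a median of 0.00.

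Whether the change between weeks differed between genotypes was tested as an interaction. Not 1 of the 35 genes passed with all arrays (0 of 35, against 0% of all genes; at an unadjusted limma p under 0.05 there were 7 of 35, against 11.4% of all genes). The smallest p among the 35 were those of Bnip3l, with an interaction of 0.54 ± 0.16, and P4ha1, with 1.61 ± 0.52 (limma adjusted p = 0.424 for both). Without wild type array 3 at 2 weeks, 16 of the 35 passed, 15 higher and 1 lower (Pdk1), against 15.7% of all genes; Ero1l then had an interaction of 3.66 ± 0.17. With that array gone, the arrays that remain in the ACKR2-deficient group at 2 weeks all stand apart and those of the other groups do not, so genotype and cell identity cannot be told apart in that version.

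Between the genotypes at 2 weeks no gene passed with all arrays: 0 of 35, against 0% of all 19938 genes. At an unadjusted limma p under 0.05 there were 19 of 35 genes, against 17.5% of all genes. The median log2 difference of ACKR2-deficient minus wild type was -0.63, beside -0.02 over all genes, and 6 of the 35 differences were above 0, against 45.4% of all genes. The groups did not overlap for 10 of the 35 genes, all lower in ACKR2-deficient arrays, against 13.6% of all genes (8.60% lower). These were Slc2a3, Aldoa, Pgk1, Eno2, Pkm, Ldha, Slc16a3, Pdk3, Egln3 and Ero1l. Their separation from wild type array 3 was often small: Ldha read 13.02, 12.75 and 12.38 on wild type and 12.35, 12.34 and 12.11 on ACKR2-deficient arrays, a difference of -0.45 ± 0.16 (limma adjusted p = 0.225). Slc2a3 read 12.06, 12.27 and 10.41 and 10.32, 10.39 and 10.17, a difference of -1.28 ± 0.38 with the same adjusted p. In both genes wild type array 3 lay next to the highest ACKR2-deficient array and far below wild type arrays 1 and 2.

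Without wild type array 3, 22 of the 35 genes passed, 19 lower and 3 higher (Pdk1, Pfkfb3 and Ankrd37), against 23.8% of all genes. The difference was then -3.38 ± 0.13 for Ero1l (limma adjusted p = 4.36e-08), -3.42 ± 0.21 for Aldoc, -2.93 ± 0.21 for Ndrg1 and 2.57 ± 0.42 for Pdk1. That version sets 2 wild type arrays that carry mast cell transcripts against 3 ACKR2-deficient arrays that do not (marker means of 12.32 to 12.41 and 6.84 to 7.11), and genotype and cell identity cannot be told apart in it.

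Between the genotypes at 10 weeks all 6 arrays carried mast cell transcripts, and no gene passed: 0 of 35, against 0% of all genes, with all arrays and also without the 4 arrays that stand apart. At an unadjusted limma p under 0.05 there were 4 of 35, against 7.85% of all genes (1566 genes). The median of the 35 was -0.06, beside 0.01 over all genes. The groups did not overlap for 6 genes, against 14.6% of all (8.61% higher and 5.98% lower): Bnip3l, P4ha1 and Slc2a1 were higher and Slc16a1, Pgk1 and Pkm lower in ACKR2-deficient arrays. Bnip3l read 12.86, 12.68 and 12.58 on wild type and 13.24, 13.07 and 13.03 on ACKR2-deficient arrays, a difference of 0.41 ± 0.11 (limma adjusted p = 0.480). Its other probe set differed by 0.30. Slc16a1 read 9.60, 8.83 and 8.35 and 8.19, 8.04 and 7.85, a difference of -0.90 ± 0.36 (limma adjusted p = 0.582). All ACKR2-deficient arrays of Slc16a1 were below all wild type arrays. P4ha1 read 11.46, 11.23 and 11.91 and 11.91, 12.001 and 12.13, equal at 2 decimals between the highest wild type and the lowest ACKR2-deficient array, and differed by 0.48 ± 0.37. For the genes with the largest changes between weeks, the 95% intervals of the genotype difference at 10 weeks were wide: -1.26 to 1.82 for Ero1l, -1.35 to 1.52 for Ndrg1 and -1.88 to 1.69 for Aldoc. Without the 4 arrays that stand apart the errors were smaller, with 0.28 ± 0.13 for Ero1l, 0.08 ± 0.20 for Ndrg1 and -0.10 ± 0.19 for Aldoc.

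The ACKR2-deficient arrays at 10 weeks differed among themselves. Hk3 read 8.64, 8.40 and 7.90 on wild type and 7.95, 6.64 and 6.86 on ACKR2-deficient arrays, the smallest p of the 35 genes (-1.16 ± 0.31, limma adjusted p = 0.480). Egln3 read 8.65, 9.05 and 7.91 and 8.06, 6.79 and 6.98 (-1.26 ± 0.36), and Hk2 9.61, 9.89 and 9.60 and 9.67, 8.56 and 8.65 (-0.74 ± 0.49). In each of these 3 genes ACKR2-deficient array 1 lay within the wild type range and arrays 2 and 3 lay below it. Epas1 (8.40, 7.14 and 7.06) and Pdk1 (8.42, 7.09 and 7.50) were likewise low on ACKR2-deficient arrays 2 and 3, and Pdk3 (10.10, 11.31 and 11.33) was high on them. The mean of 11 of 12 monocyte and macrophage markers followed the same arrays, with 9.90, 7.88 and 7.68 on ACKR2-deficient and 9.46, 10.54 and 10.13 on wild type arrays. That of 14 neutrophil markers was 7.84, 6.86 and 6.70 and 9.12, 10.08 and 8.26. The part of these cells in the values of Hk2, Hk3, Egln3, Epas1, Pdk1 and Pdk3 was not tested.

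Without ACKR2-deficient array 1 at 10 weeks, 1 of the 35 genes passed, Hk3 with -1.56 ± 0.22 (limma adjusted p = 0.0196), against 0.647% of all genes. The array left out there is the one seen to lie within the wild type range for this gene, so the call is no independent support for a difference.

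**Figure D4:**
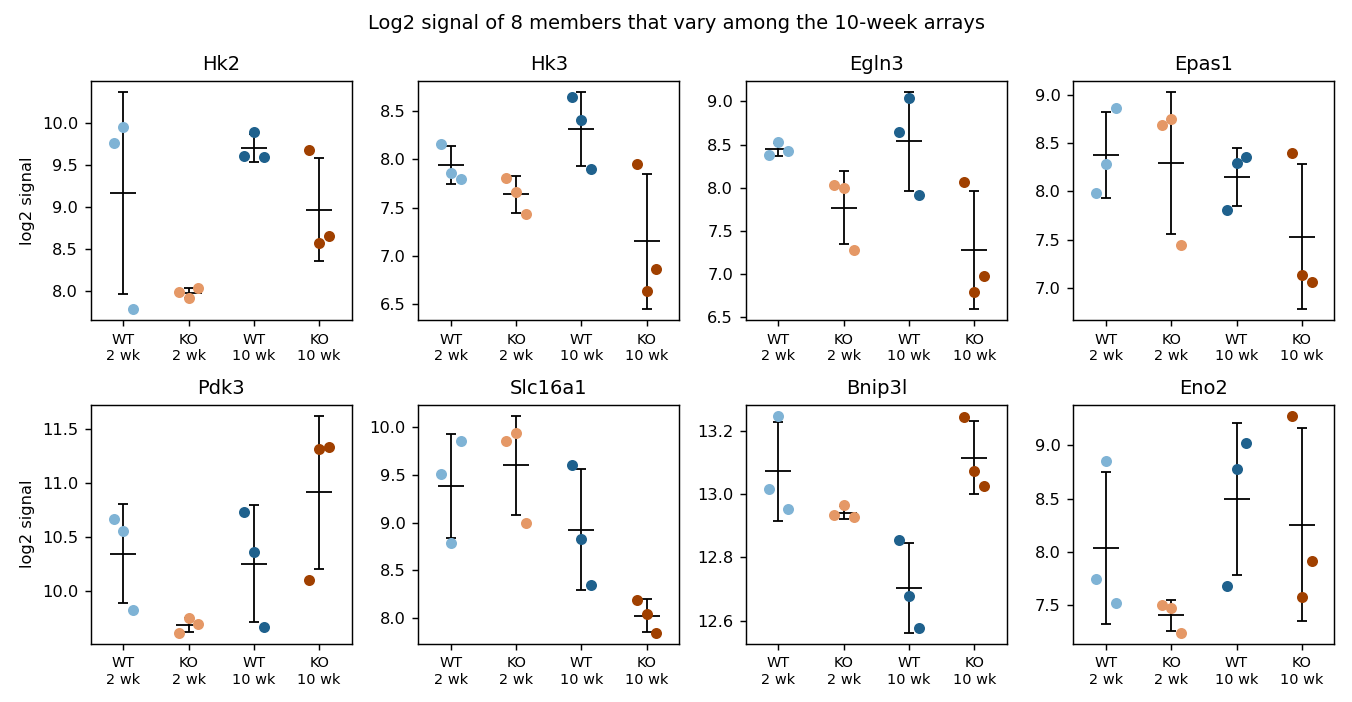
Log2 signal (vertical axis) of 8 genes in the 4 groups (WT, wild type; KO, ACKR2-deficient; wk, weeks of culture); points are arrays 1 to 3 from left to right, and the bar and whiskers are the mean and SD of 3 arrays. At 10 weeks ACKR2-deficient arrays 2 and 3 are below all wild type arrays for Hk2, Hk3, Egln3 and Epas1, with 6.64 and 6.86 for Hk3, while array 1 is not.

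Related genes were also set against each other within each array, as the difference of their log2 signals, which shows unequal change only and not which gene is more abundant. For 12 pairs in 4 comparisons, an exact 2-sided permutation test of 3 against 3 arrays cannot give a p under 0.1, and no pair passed after adjustment over the 12. Pdk3 minus Pdk1 was -1.66, -1.54 and -0.33 on ACKR2-deficient arrays at 2 weeks and 1.68, 4.23 and 3.83 at 10 weeks. The groups did not overlap, and the change was 4.43 log2 units (exact permutation p = 0.1, adjusted 0.15). On wild type arrays it was 2.31, 2.31 and -1.56 at 2 weeks and 2.20, 1.88 and 1.37 at 10 weeks, with array 3 at 2 weeks on the ACKR2-deficient side. Without that array the change in wild type was -0.50 (exact permutation p = 0.2, adjusted 0.6), and the genotypes at 2 weeks differed by -3.49 (exact permutation p = 0.1, adjusted 0.15); 2 against 3 arrays cannot give a p under 0.1 either, and no pair passed in those versions. Slc16a3 minus Slc16a1, the lactate transporters, was -1.64, -1.82 and -0.94 and then 1.73, 1.47 and 1.73 on ACKR2-deficient arrays, a change of 3.11 (exact permutation p = 0.1, adjusted 0.15). Aldoc minus Aldoa changed by 2.14 and Ldhb minus Ldha by -1.43, with the same p. At 10 weeks Pdk3 minus Pdk1 differed between genotypes by 1.43 (exact permutation p = 0.3, adjusted 0.4), ACKR2-deficient array 1 lying within the wild type range.

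**Figure D5:**
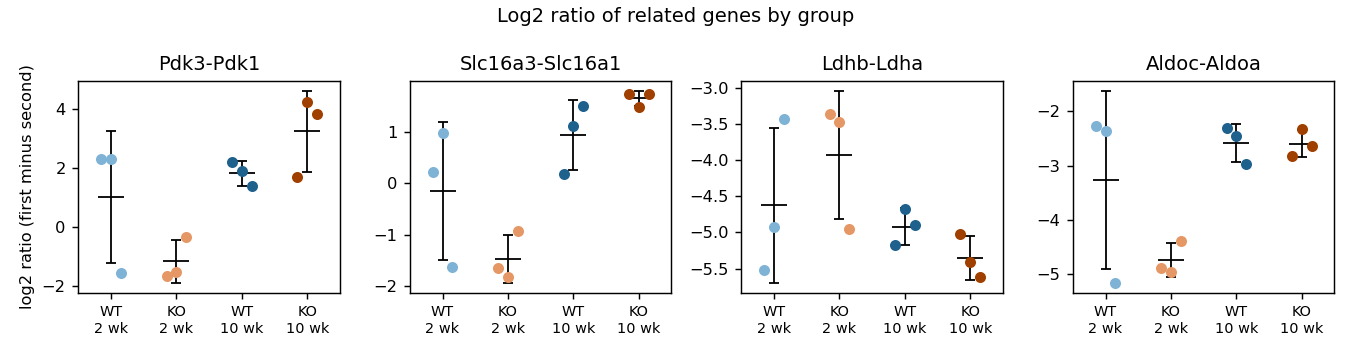
Log2 ratio (vertical axis, first gene minus second) of 4 pairs of related genes in the 4 groups (WT, wild type; KO, ACKR2-deficient; wk, weeks of culture); points are arrays 1 to 3 from left to right, and the bar and whiskers are the mean and SD of 3 arrays. Pdk3 minus Pdk1 is below 0 on wild type array 3 and the 3 ACKR2-deficient arrays at 2 weeks and between 1.37 and 4.23 on the other 8.

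Of 102 other genes of the same and neighbouring pathways, 93 were measured. Between 2 and 10 weeks in ACKR2-deficient arrays, 6 of 20 other glycolysis genes changed, 4 higher and 2 lower, beside the 16.8% of all genes given above. Slc2a6, a sugar transporter of leukocytes, rose by 2.81 ± 0.67, Pdk2 by 1.16 ± 0.24 and Pfkfb2 by 0.84 ± 0.16, while Tigar, a fructose 2,6-bisphosphatase, changed by -0.47 ± 0.09. Of 12 HIF partners and regulators 2 rose and 1 fell. Cited2, which competes with HIF for its coactivators, rose by 1.96 ± 0.38 and Vhl, the factor that marks HIF for degradation, by 0.60 ± 0.16, and the coactivator gene Crebbp changed by -0.38 ± 0.11. Of 32 other hypoxia response genes 6 rose and 3 fell. Vegfa, the angiogenic growth factor, rose by 2.17 ± 0.47 and Plod1, a collagen lysyl hydroxylase, by 2.12 ± 0.40. The chemokine receptor Cxcr4 changed by -3.00 ± 0.54 and the haem oxygenase Hmox1 by -2.85 ± 0.56, both lower at 10 weeks. In the pentose phosphate pathway, which branches from glycolysis, 2 of 6 genes rose: Tkt by 0.98 ± 0.23 and Taldo1 by 0.54 ± 0.15. Of 23 genes of pyruvate dehydrogenase and the citrate cycle 2 rose and 2 fell, with Pcx, the pyruvate carboxylase, up by 2.90 ± 0.54, Sdhd up by 0.50 ± 0.14, Pdha1 at -0.58 ± 0.17 and Ogdh at -0.51 ± 0.15. The medians of the 5 lists were 0.27, -0.08, 0.32, 0.60 and -0.03 in that order, beside 0.06 over all genes. These calls rest on the same 2-week arrays as those of the 35 genes.

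In the other comparisons none of the 93 genes passed with all arrays. Without wild type array 3 at 2 weeks, 30 of the 93 passed between genotypes at 2 weeks, 24 lower and 6 higher in ACKR2-deficient arrays, beside the 23.8% of all genes given above. These were 6 of 20 other glycolysis genes, 4 of 12 HIF partners and regulators, 12 of 32 other hypoxia response genes, 4 of 6 pentose phosphate genes and 4 of 23 genes of the citrate cycle list. In that version Slc2a6 differed by -2.74 ± 0.14, Cited2 by -2.09 ± 0.17 and Vegfa by -2.16 ± 0.17, and genotype and cell identity cannot be told apart in it. The interaction then passed for 21 of the 93, 17 higher and 4 lower, beside the 15.7% of all genes, and the weeks in wild type for 0, with 0% of all genes. With all arrays, between genotypes at 10 weeks the smallest p in each list were those of Pfkfb2 (0.45 ± 0.16) and Slc2a9 (0.17 ± 0.09) among other glycolysis genes and of Siah2 (-0.33 ± 0.16) and Rwdd3 (0.30 ± 0.15) among HIF regulators. Among other hypoxia genes they were those of Mif (-0.70 ± 0.18) and Stc2 (-0.60 ± 0.16), in the pentose phosphate pathway Pgls (-0.27 ± 0.13) and Rpe (0.31 ± 0.20), and in the citrate cycle list Sdhb (-0.33 ± 0.11) and Sdhd (-0.35 ± 0.14). Between genotypes at 2 weeks they were Pdk2 (-0.80 ± 0.24) and Adpgk (0.94 ± 0.34), Cited2 (-1.53 ± 0.38) and Vhl (-0.43 ± 0.16), Plod1 (-1.33 ± 0.40) and Rbpj (-0.66 ± 0.20), Taldo1 (-0.56 ± 0.15) and Tkt (-0.58 ± 0.23), and Sdhd (-0.43 ± 0.14) and Pcx (-1.61 ± 0.54). Between weeks in wild type arrays they were Slc2a8 (0.45 ± 0.19) and Tigar (-0.20 ± 0.09), Crebbp (-0.42 ± 0.11) and Arnt (-0.33 ± 0.13), Fam162a (0.64 ± 0.16) and Higd1a (0.57 ± 0.23), Pgls (0.43 ± 0.13) and Tkt (0.55 ± 0.23), and Idh3b (-0.41 ± 0.12) and Sucla2 (0.33 ± 0.11). All these values are log2 differences with limma's SE, and none of those from all arrays is a call.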

How the data were processed

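The deposited table holds log2 values of 35399 probe sets on 12 arrays, made by the authors in Partek 6.5 with RMA according to the submitters' processing notes. This method gives all arrays nearly 1 distribution, so a shift shared by most genes is lost. Of the probe sets' build and annotation nothing is stated (not given in the sources used here), and no value has a detection call. Values ran from 2.66 to 14.91 and array medians from 7.76 to 7.90; the number of arrays limits the precision.

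Probe sets with 1 gene symbol (21789, against 1621 with several and 11989 unnamed) were reduced to the one with the highest mean per gene, 19938 genes. The 12 arrays entered 1 limma fit of group means (version 3.58.1, under R 4.3.3, 8 residual and 2.39 prior degrees of freedom), with Benjamini-Hochberg adjustment over all genes and a threshold of 0.05. The fit was tried on simulated data with independent normal noise, spreads capped at their median and no arrays that stand apart. That trial therefore does not show how the fit behaves with such arrays. Errors after ± are limma's standard errors. Differences of related genes were tested by exact permutation.

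The 38 genes and the other lists were chosen with earlier results of these data known. All 38 are named, with up to 4 called genes of each other list per comparison, or the 2 with the smallest p. Same-numbered wild type arrays of the 2 times deviated together (correlations of 0.17 to 0.36, other numbers at most 0.02). Their numbers were therefore read as possible pairs, although over all genes wild type array 3 at 2 weeks was nearest to an ACKR2-deficient array (r = 0.997). The sex-linked transcripts of wild type array 3 also differed between the times. Xist read 5.77 at 2 weeks and 13.11 at 10 weeks, and Kdm5d 10.18 and 6.04. Number 3 thus does not read as a pair from the same mouse, yet the replicate block treated it as one. Numbers of other groups were not read as pairs. The main fit paired no arrays, so the errors and p-values given for wild type are unpaired, and only the replicate block used the numbers. Alternatives covered the arrays and probe sets used, scaling, variance model, array weights, a filter on dim genes and a replicate block.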

Additional observations from a re-analysis of the deposited data

Results flagged for a closer look

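Bnip3l, the mitophagy receptor gene related to Bnip3, stood out because its arrays moved in opposite directions in the 2 genotypes. On wild type arrays it read 13.01, 13.25 and 12.95 at 2 weeks and 12.86, 12.68 and 12.58 at 10 weeks, a log2 difference of -0.37. On ACKR2-deficient arrays it read 12.93, 12.96 and 12.93 at 2 weeks and 13.24, 13.07 and 13.03 at 10 weeks, a difference of 0.17. In neither genotype did the 2 times overlap. The difference between the genotypes was tested as an interaction, 0.54 ± 0.16, which did not pass (limma adjusted p = 0.424). Without wild type array 3 at 2 weeks it was 0.60 ± 0.17 (limma adjusted p = 0.0336), a version in which 15.7% of all genes passed and in which genotype and cell identity cannot be told apart. Because the gene was picked for the order of these same values, neither p is independent support. Its other probe set gave -0.21 in wild type and 0.04 in ACKR2-deficient arrays. On that probe set ACKR2-deficient arrays read 11.72, 11.77 and 11.76 at 2 weeks and 11.94, 11.64 and 11.79 at 10 weeks. These 2 times overlapped, so the other probe set did not show the opposite order.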

How the results depend on the processing

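Counts are of the 35 genes called by limma, with 0, 0, 0, 17 and 0 for genotype at 2 weeks, genotype at 10 weeks, weeks in wild type, weeks in ACKR2-deficient and their interaction. Leaving out each array in turn gave 0 to 22 for genotype at 2 weeks, 0 to 1 at 10 weeks, 0 to 22 for weeks in ACKR2-deficient and 0 to 16 for the interaction. Limma's array weights gave 30 for genotype at 2 weeks, 30 for weeks in ACKR2-deficient and 18 for the interaction, but their estimation did not converge. Weights estimated gene by gene, added after seeing the data, gave 27, 13, 1, 29 and 27 in the order above, with 8370, 5356, 1737, 8918 and 7336 of all genes called. The 10-week arrays alone without ACKR2-deficient array 1, also added later, gave 5, against 2.54% of all genes. That array was left out because its values lay within the wild type range, so the 5 support nothing. Over all genes, weeks in ACKR2-deficient called 3358 and the other comparisons 0. With array weights it called 9550, genotype at 2 weeks 9197 and the interaction 4136. With an array left out these ran from 0 to 4994, 0 to 4738 and 0 to 3138, and genotype at 10 weeks from 0 to 129. With the replicate block the counts were 0, 0, 0, 16 and 0, the 16 against 14.5% of all genes, and in the 6 wild type arrays alone 0. The block thus moved 1 net call and no comparison's side of 0, and 15 of the 16 genes were among the 17. Scaling, the variance model, the dim-gene filter, the groups fitted and other probe sets kept the ACKR2-deficient count between 13 and 20. Between 15.8% and 25.1% of all genes were called in those settings. Hk1 reversed from -0.15 to 0.49 with the mean of its probe sets and to 1.14 with the one of highest SD, which is also its other probe set (1.14). The causes of these shifts were not tested. With 3 arrays a group and 4 arrays that stand apart, small differences were not resolved.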
